A study of Mus musculus with 8 samples.

Results

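Potassium channel genes were taken as every gene symbol of the deposited count tables made of Kcn, family letters and a number, which gave 92 of 24421 genes. They were read in hippocampal RNA from C57BL/6J mice, labelled male and wildtype, at week 8 and at postnatal day 3. IUGR offspring were born to dams given dexamethasone, a synthetic glucocorticoid, by intraperitoneal injection at 1 mg/kg/day for 5 days from 14.5 days post coitum, and NS offspring to dams given saline. Each of the 4 groups, IUGR at week 8, NS at week 8, IUGR at day 3 and NS at day 3, held 2 libraries. By symbol, 40 members were voltage-gated pore subunits (Kv: Kcna, Kcnb, Kcnc, Kcnd, Kcnf, Kcng, Kcnh, Kcnq, Kcns, Kcnv), 15 inward rectifiers (Kir: Kcnj), 14 leak channels of the tandem-pore type (K2P: Kcnk), and 8 calcium-activated, sodium-activated or Slo3 channels (KCa: Kcnma, Kcnn, Kcnt, Kcnu). The other 15 were auxiliary subunits (Kcnab, Kcne, Kcnip, Kcnmb).

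Potassium channels let potassium ions leave or enter a cell along their gradient, and so set the resting potential, shape the action potential and limit firing. Kv channels open on depolarization, Kir channels carry current best near and below the potassium equilibrium, K2P channels carry a background leak, and KCa channels couple calcium entry to a drop in excitability. Auxiliary subunits have no pore and change the gating or surface number of their pore-forming partners. In the rodent hippocampus many of these currents are known to grow as neurons and glia mature after birth.

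Total counts per library lay between 13030277 and 18993050, so 3 counts, the most that a count of 0 allows, came to 0.158 to 0.23 CPM, the count scaled to the library total, for counting error only. Both replicate 2 libraries of day 3 went against the male label: Xist had 5130 counts in IUGR replicate 2 and 4998 in NS replicate 2, against 81 and 4 in their replicate 1 partners, and 4 Y-linked genes summed to 74 and 34 counts, against 5364 and 3783. At week 8 the libraries split by replicate number, and Rpph1, the RNA of RNase P, had 2 and 0 counts in IUGR and NS replicate 2, against 959735 and 1002307 in replicate 1. All 10 neuron markers were detected, with sums of 4887 to 12760 CPM at week 8 and 3437 to 3641 CPM at day 3. Of these, Stmn2 and Map2 went the other way, Stmn2 with 220 to 427 CPM at week 8 and 1155 to 1248 CPM at day 3. The labels do not say whether the libraries of a group came from separate animals or litters, so p-values measure only the spread between these libraries, which may be technical. In bulk RNA, fewer cells of a type and less RNA per cell cannot be told apart.

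Of the 92 members, 90 had at least 1 count in some library, and 77 reached a group-averaged mean of 1 CPM at week 8 or day 3. The expression filter passed 80 members to the tests. The other 12, with values near the limit of detection, were Kcna7, Kcna10, Kcnv2, Kcnj1, Kcnj15, Kcnk7, Kcnk15, Kcnk16, Kcnk18, Kcne1, Kcne3 and Kcnmb3, of which Kcnj1 and Kcnk16 had 0 counts in all 8 libraries. Levels of different genes were compared as CPM per kilobase of the deposited gene length. On that scale the highest mean level over the 4 libraries of week 8 was that of Kcnab2, the beta subunit of Kv1 channels, at 188. Kcnip2, a calcium-binding subunit of Kv4 channels, followed with 57.4, and Kcnk1 (TWIK-1) had 43.4. At day 3 Kcnd2, the A-type channel of dendrites, with 17.5, and Kcnk1, with 16.3 CPM per kilobase, were among the first 3. Kcnab2, the first at week 8, was the 16th at day 3 with 8.57 CPM per kilobase.

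Summed over each class, potassium channel RNA was higher in all 4 libraries of week 8 than in all 4 of day 3 for every class. Kv subunits summed to 1976 and 2460.3 CPM in IUGR and 1750.0 and 2948 CPM in NS at week 8, against 894 and 1046 CPM in IUGR and 915 and 994 CPM in NS at day 3. Kir channels summed to 522 and 574 CPM in IUGR and 539.9 and 636 CPM in NS at week 8, against 143 and 142 CPM in IUGR and 143 and 158 CPM in NS at day 3, K2P channels to 187 and 267 CPM in IUGR and 194 and 225 CPM in NS at week 8, against 141 and 147 CPM in IUGR and 139.8 and 151 CPM in NS at day 3. The ratio of the week 8 libraries to the day 3 mean was 2.37 ± 0.554 for Kv, 3.87 ± 0.342 for Kir and 1.51 ± 0.252 for K2P (SD, n = 4 week 8 libraries). KCa channels summed to 423 and 229.9 CPM in IUGR and 357 and 294 CPM in NS at week 8, against 183 and 186 CPM in IUGR and 165 and 194 CPM in NS at day 3, a ratio of 1.79 ± 0.454. Auxiliary subunits had the widest spread, with 701 and 1710.3 CPM in IUGR and 732 and 1582 CPM in NS at week 8, against 206 and 214 CPM in IUGR and 209 and 256 CPM in NS at day 3. Their ratio of 5.34 ± 2.44 came to 2.48 without Kcnab2, and the K2P ratio to 1.11 without Kcnk1. Without Kcnk1 the K2P sums of the ages overlapped, with 100.6 to 132.9 CPM at week 8 and 101.8 to 112.1 CPM at day 3. At week 8 the 2 libraries of a group differed more than the IUGR and NS means did in every class.

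**Figure D1:**
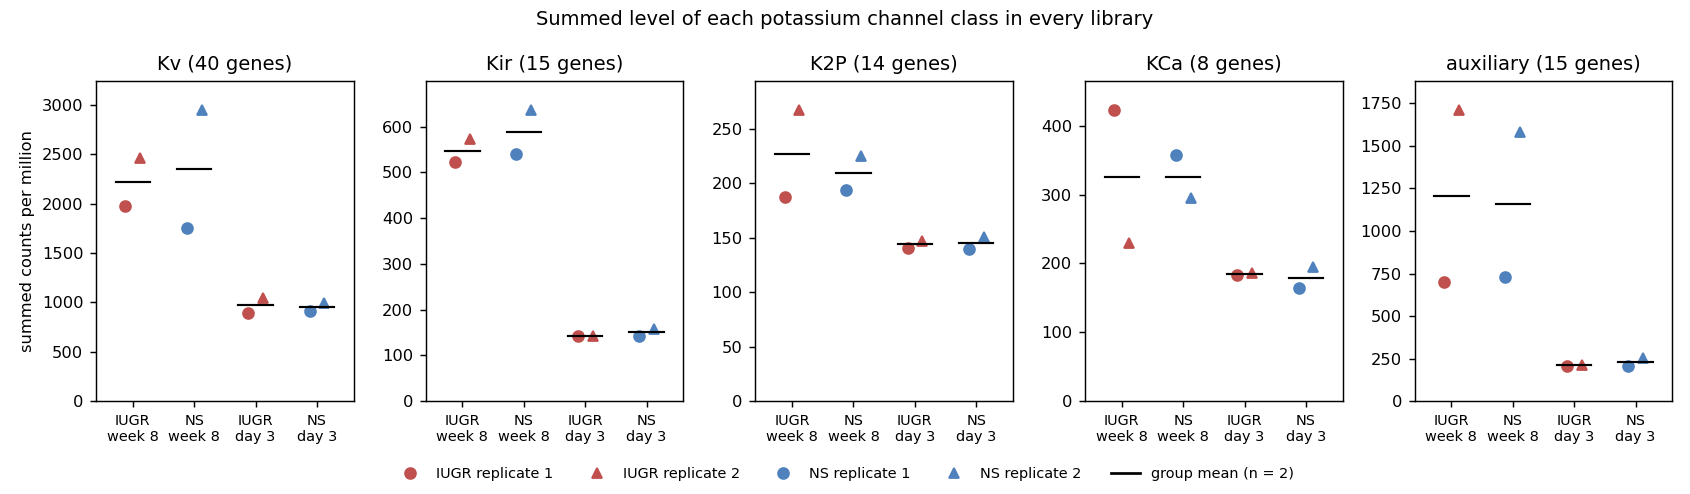
Summed CPM of each class on a linear axis, 1 point per library (circles replicate 1, triangles replicate 2) with a bar at each group's mean of 2 libraries. All week 8 points lie above all day 3 points in each panel, and the auxiliary sums of week 8 separate by replicate number, with 1710 and 1582 in replicate 2 against 701 and 732 in replicate 1.

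Between the ages 18 members were called higher at week 8 in both IUGR and NS, and 2, Kcnip1 and Kcnu1, lower in both. In IUGR 22 of the 80 tested members were called, 19 higher and 3 lower, against 16.8% of the 15999 genes tested, 9.34% higher and 7.48% lower. In NS 20 were called, 18 higher and 2 lower, against 14.1% of all genes, 7.7% higher and 6.44% lower. Called higher in both groups were 6.9% of all genes, and lower in both 5.51%. The median log2 fold change of the tested members was 1.01 in each group, beside 0.02 in IUGR and 0.04 in NS over all genes. Counted without a model, all 4 libraries of week 8 lay above all 4 of day 3 for 39 of the 80 members (48.8%, against 21.1% of all genes) and below them for 9 (11.2%, against 26%). Among the 9 were Kcna3, Kcnh8, Kcnj5, Kcnj8, Kcnk10, Kcnu1, Kcnip1 and Kcnmb2. Since members entered the tests only if expressed in enough libraries, these shares describe the 80 tested members.

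Leaving out both day 3 replicate 2 libraries, which go against the male label, left 0% of all genes and so 0 members called in either group, while all 22 members of IUGR and all 20 of NS kept their direction. That direction was nearly fixed in advance, because the week 8 and day 3 libraries did not overlap in CPM for any of these members. The count of members moved with that of all genes in the other settings too. In IUGR, 1 member was called when either IUGR library of day 3 was left out (0.559% and 0.953% of all genes), 14 when either NS library of day 3 was (6.25% and 6.41%), and 12 when IUGR replicate 2 of week 8 was (5.49%). In NS, 0 were called when either NS library of day 3 was left out (0.415% and 0.31%), 13 when either IUGR library of day 3 was (4.99% and 5%), and 35 when NS replicate 1 of week 8 was (23%). Without both week 8 replicate 1 libraries, 39 members were called higher and 12 lower in IUGR (56% of all genes called) and 46 and 12 in NS (57.8%). Without both week 8 replicate 2 libraries, 46 were called higher and 5 lower in IUGR (41.4%) and 33 and 8 in NS (37.9%). Both of these settings left 1 library of week 8 in each group, so their spread came from the day 3 libraries alone. That the 22 and 20 calls made on all libraries were among theirs is therefore no support for those calls.

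**Figure D2:**
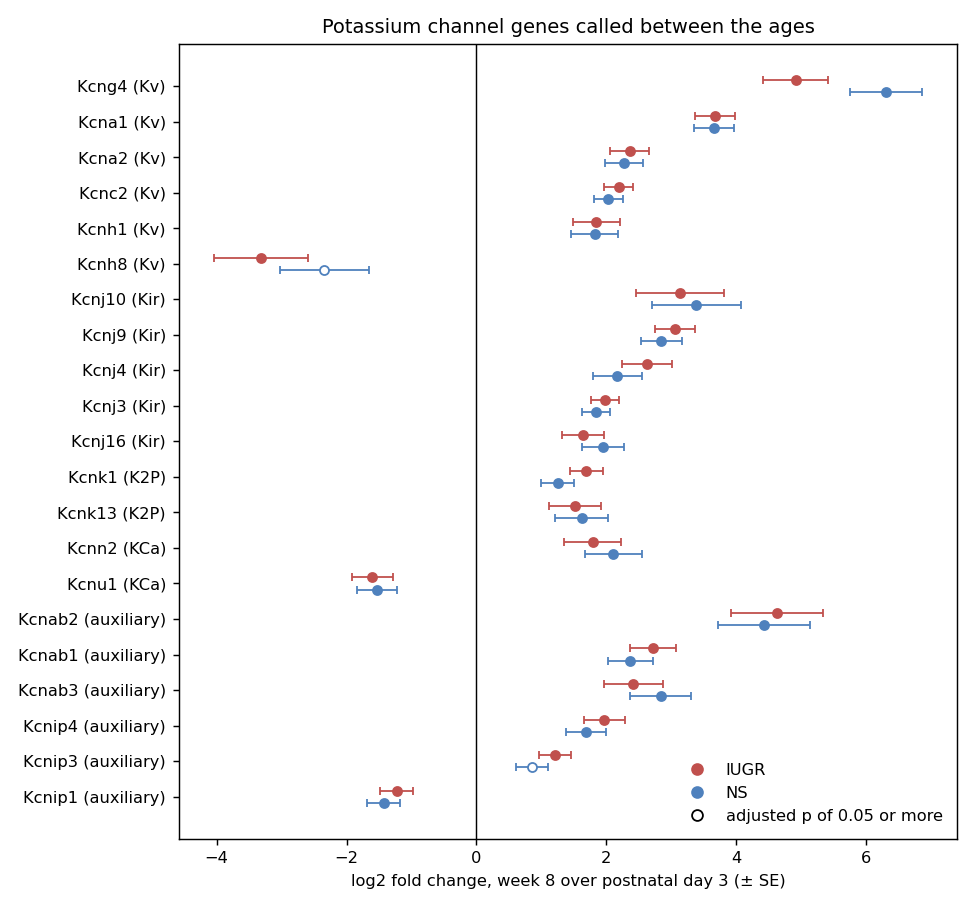
Log2 fold changes of the reported members called between the ages in IUGR or NS, week 8 over day 3, with bars of 1 standard error from edgeR (2 libraries per group); filled points passed an adjusted p of 0.05. The IUGR and NS points of each gene lie on the same side of 0, and Kcnh8 and Kcnip3 passed in IUGR while in NS their adjusted p was 0.0665 and 0.0637, while the Kcng4 values rest on 7 and 3 counts at day 3.

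Among the 37 tested Kv subunits 6 were called higher in both groups and none lower in both, against 6.9% and 5.51% of all genes. Kcna1, which encodes the low-threshold axonal channel Kv1.1, had 143 and 204 CPM in IUGR and 152 and 201 CPM in NS at week 8, against 15.4 and 13.8 CPM in IUGR and 12.2 and 16.3 CPM in NS at day 3. The ages did not overlap, and edgeR gave a log2 fold change of 3.68 ± 0.309 in IUGR (adjusted p = 0.00277) and of 3.66 ± 0.309 in NS (adjusted p = 0.0031), each ± being the SE of a fit with n = 2 libraries per group. Its frequent partner Kcna2 (Kv1.2) had 241 and 149 CPM in IUGR and 227 and 179.8 CPM in NS at week 8, against 36.7 and 44.9 CPM in IUGR and 44.4 and 41.5 CPM in NS at day 3, with a log2 fold change of 2.36 ± 0.295 in IUGR (adjusted p = 0.00635) and of 2.27 ± 0.294 in NS (adjusted p = 0.00794). Both lie in clusters of Kcna genes whose other tested members did not pass, as given among the closing observations. Kcnc2 (Kv3.2), a fast channel known from fast-spiking interneurons, had 104 and 122 CPM in IUGR and 99.5 and 121 CPM in NS at week 8, against 24.7 and 28.5 CPM in IUGR and 29.5 and 25.5 CPM in NS at day 3, and a log2 fold change of 2.19 ± 0.222 in IUGR (adjusted p = 0.00386) and of 2.03 ± 0.221 in NS (adjusted p = 0.00572). The 10 interneuron markers summed to 762 to 1319 CPM at week 8 and 426 to 693 CPM at day 3. Of these, Lhx6, Npy and Calb2 went the other way, Lhx6 with 9.87 to 19.1 CPM at week 8 and 37.25 to 50.35 CPM at day 3. Sst and Slc32a1 overlapped between the ages, and the rest were higher at week 8. The part of interneurons in the Kcnc2 result was not tested.

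Kcnh1, of the ether-a-go-go family, ranged over 40 to 58.7 CPM at week 8, against 10.9 to 19.9 CPM at day 3, with 1.85 ± 0.367 in IUGR and 1.82 ± 0.367 in NS on the log2 scale. Kcng4, an electrically silent subunit that joins other Kv subunits, was near the limit of detection at day 3. Its 2 libraries together held 168 counts at week 8 and 7 at day 3 in IUGR, and 260 and 3 in NS. The ratio of CPM was 29.2 in IUGR and 86.8 in NS, with exact 95% counting intervals of 13.9 to 73.8 and 29.4 to 423. These intervals cover the counting error of the pooled counts only, not the spread between libraries. Kcng4 passed the expression filter through its week 8 libraries, so its call is no separate support for the change. Kcnh8, an Elk-type channel, was lower at week 8 past the threshold in IUGR, with 1.08 and 0.41 CPM in IUGR and 2.53 and 0.68 CPM in NS at week 8, against 6.8 and 9.43 CPM in IUGR and 8.94 and 7.31 CPM in NS at day 3. Its log2 fold change was -3.32 ± 0.722 in IUGR (adjusted p = 0.0271) and -2.34 ± 0.679 in NS (adjusted p = 0.0665), and the difference between the IUGR and NS changes had an adjusted p of 1.

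Other abundant Kv genes did not pass the test. Of the M current genes, Kcnq3 had log2 fold changes of 0.28 in IUGR and 0.44 in NS, and Kcnq5 of 1.15 in IUGR and 1.05 in NS. For the A-type channels these values were 0.59 and 0.53 for Kcnd2 (Kv4.2) and 0.59 and 0.63 for Kcnd3 (Kv4.3).

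The 13 tested inward rectifiers gave 5 genes called higher in both groups and none lower, against 6.9% and 5.51% of all genes. The G-protein-gated subunits Kcnj3 (GIRK1) and Kcnj9 (GIRK3), whose channels carry slow inhibition through G-protein-coupled receptors, were both higher. Kcnj3 had 126 and 149.5 CPM in IUGR and 131 and 141 CPM in NS at week 8, against 42 and 33.4 CPM in IUGR and 38.9 and 38.5 CPM in NS at day 3, and a log2 fold change of 1.98 ± 0.217 in IUGR (adjusted p = 0.00493) and of 1.84 ± 0.216 in NS (adjusted p = 0.00678). For Kcnj9 the values were 82.8 and 57.2 CPM in IUGR and 56.9 and 86 CPM in NS at week 8, against 8.16 and 9.87 CPM in IUGR and 10.2 and 10.1 CPM in NS at day 3, with a log2 fold change of 3.06 ± 0.315 in IUGR (adjusted p = 0.00407) and of 2.85 ± 0.313 in NS (adjusted p = 0.00573). All week 8 libraries of both genes exceeded all day 3 libraries. Kcnj6 (GIRK2), their usual neuronal partner, had log2 fold changes of 1.88 ± 0.575 in IUGR and 1.77 ± 0.573 in NS, with adjusted p of 0.0701 and 0.0872. Kcnj4 (Kir2.3), a strong rectifier of forebrain neurons, ranged over 39.4 to 72.5 CPM at week 8, against 9.9 to 15.6 CPM at day 3, with 2.63 ± 0.381 in IUGR and 2.17 ± 0.375 in NS.

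Kcnj10 (Kir4.1), the glial channel that clears extracellular potassium, had 56.7 and 172 CPM in IUGR and 75.6 and 203 CPM in NS at week 8, against 14.6 and 13.3 CPM in IUGR and 15.8 and 11.4 CPM in NS at day 3. The week 8 libraries lay above those of day 3, replicate 2 above replicate 1, with a log2 fold change of 3.14 ± 0.674 in IUGR (adjusted p = 0.026) and of 3.39 ± 0.682 in NS (adjusted p = 0.0246). Kcnj16 (Kir5.1), which joins Kir4.1 in mixed channels, had 31.4 and 24.5 CPM in IUGR and 33.5 and 25.7 CPM in NS at week 8, against 8.84 and 10.5 CPM in IUGR and 9.77 and 5.82 CPM in NS at day 3, and log2 fold changes of 1.64 ± 0.326 in IUGR and 1.95 ± 0.33 in NS. Glial markers were higher in the same libraries: 10 of 10 astrocyte markers were detected and summed to 5616 to 6343 CPM at week 8 and 1122 to 1441 CPM at day 3, and 10 oligodendrocyte markers to 4491 to 5641 CPM and 107 to 143 CPM. Their part in the Kcnj10 and Kcnj16 results was not tested. Kcnj11 (Kir6.2), the pore of neuronal ATP-sensitive channels, had values of 2.19 ± 0.618 in IUGR and 1.82 ± 0.612 in NS, with adjusted p of 0.0557 and 0.0949.

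Of the 10 tested K2P channels, 2 were called higher in both groups, against 6.9% of all genes. Kcnk1 had 86.6 and 135 CPM in IUGR and 87.1 and 92.2 CPM in NS at week 8, against 38.5 and 35.3 CPM in IUGR and 38 and 38.6 CPM in NS at day 3. The ages did not overlap, and the log2 fold change was 1.69 ± 0.254 in IUGR (adjusted p = 0.00999) and 1.25 ± 0.251 in NS (adjusted p = 0.0242). Kcnk13 (THIK-1), known as the resting channel of microglia, had 7.51 and 4.59 CPM in IUGR and 10.7 and 6.32 CPM in NS at week 8, against 2.1 and 2.43 CPM in IUGR and 2.82 and 2.8 CPM in NS at day 3. Its log2 fold change was 1.52 ± 0.405 in IUGR (adjusted p = 0.0479) and 1.62 ± 0.404 in NS (adjusted p = 0.0444). The 10 microglia markers summed to 417 to 493 CPM at week 8 and 143 to 200 CPM at day 3; their part was not tested. The mechanosensitive Kcnk2 (TREK-1) had 0.75 and 0.34 in IUGR and NS, and its relative Kcnk10 (TREK-2) -2.26 and -1.78, on the log2 scale, and neither passed.

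In the KCa class Kcnn2 (SK2), a small-conductance channel of hippocampal pyramidal cells, was called higher, with 25.7 and 52.6 CPM in IUGR and 29.7 and 55.9 CPM in NS at week 8, against 12.8 and 11.6 CPM in IUGR and 10.4 and 9.82 CPM in NS at day 3. Its log2 fold change of 1.79 ± 0.438 in IUGR (adjusted p = 0.0378) and of 2.11 ± 0.444 in NS (adjusted p = 0.028) exceeded those of its relatives Kcnn1, with 0.24 and 0.37, and Kcnn3, with 0.47 and 0.07, which did not pass; the difference between the genes was not tested. Kcnma1, the large-conductance BK channel, had log2 fold changes of 0.66 in IUGR and 0.65 in NS. Kcnu1 (Slo3), known in mice as a sperm channel, was lower at week 8, with 2.43 and 2.26 CPM in IUGR and 3.68 and 2.9 CPM in NS at week 8, against 8.84 and 6.5 CPM in IUGR and 9.42 and 9.88 CPM in NS at day 3. The groups did not overlap between the ages, and its log2 fold change was -1.6 ± 0.317 in IUGR (adjusted p = 0.0206) and -1.53 ± 0.313 in NS (adjusted p = 0.026).

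Auxiliary subunits changed in both directions. Each of the 3 cytoplasmic beta subunits of Kv1 channels was higher. Kcnab2 had 364 and 1083 CPM in IUGR and 385 and 1016 CPM in NS at week 8, against 27.2 and 35.7 CPM in IUGR and 32.3 and 34.4 CPM in NS at day 3, and a log2 fold change of 4.63 ± 0.71 in IUGR (adjusted p = 0.0104) and of 4.43 ± 0.704 in NS (adjusted p = 0.0133). Its day 3 libraries were close together and its week 8 libraries were high in both groups, replicate 2 several-fold above replicate 1. Kcnab1 ranged over 111 to 196 CPM at week 8, against 23.1 to 30.2 CPM at day 3, with log2 fold changes of 2.72 ± 0.348 in IUGR and 2.37 ± 0.344 in NS, and Kcnab3 over 15.6 to 33.7 CPM at week 8, against 2.96 to 4.31 CPM at day 3, with 2.42 ± 0.458 in IUGR and 2.84 ± 0.466 in NS.

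The 4 calcium-binding subunits of Kv4 channels differed in direction. Kcnip4 was higher, with 38.5 and 69.2 CPM in IUGR and 36.5 and 31.4 CPM in NS at week 8, against 15.4 and 14.2 CPM in IUGR and 10.3 and 11.1 CPM in NS at day 3, and a log2 fold change of 1.97 ± 0.313 in IUGR (adjusted p = 0.0115) and of 1.69 ± 0.312 in NS (adjusted p = 0.0201). Kcnip1 was lower, with 15.1 and 20.4 CPM in IUGR and 16.2 and 15.9 CPM in NS at week 8, against 37.4 and 52 CPM in IUGR and 45.6 and 42.5 CPM in NS at day 3. Its libraries did not overlap between the ages, and edgeR gave a log2 fold change of -1.23 ± 0.254 in IUGR (adjusted p = 0.0234) and of -1.43 ± 0.255 in NS (adjusted p = 0.0184). Kcnip3, also known as the repressor DREAM, passed in IUGR with 1.21 ± 0.247 and had 0.86 ± 0.246 in NS. Kcnip2 had 2.77 ± 0.885 and 2.36 ± 0.87 in IUGR and NS, with adjusted p of 0.0771 and 0.119. Kcnmb4, the neuronal beta subunit of BK, had 0.61 in IUGR and 0.08 in NS and did not pass. Exons of 26 of the 92 members overlap those of a gene on the other strand. Among these are the called genes Kcnj3, Kcnj9, Kcnk1, Kcnn2, Kcnab1, Kcnab3 and Kcnip4, and Kcnh3, Kcnh7, Kcnq5, Kcnd3, Kcnj6, Kcnj13, Kcnk2, Kcnk3, Kcnma1, Kcnn1, Kcnt2 and Kcnmb4. Since strand use in counting is not stated, reads of such pairs cannot be told apart. Kcnab2 shares exon positions with Gm16334 and Kcnk4 with Catsperz, each on the same strand, where strand use would not tell reads apart.

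Promoters of 5 of these genes are shown because the genes moved together or in opposite directions between the ages. Kcnj9 (chr1:172320501-172329318, minus strand) and Kcnj10 (chr1:172341210-172374085, plus strand, both GRCm38/mm10) start 11892 bases apart and point away from each other, and both were higher at week 8. Kcna2 encodes a Kv1 pore subunit and Kcnab2 its beta subunit, both higher, and Kcnip1 was lower. The windows run from 250 bases before to 50 bases after a listed start (RefSeq, GRCm38.p6): chr1:172329273-172329572 (minus), chr1:172340960-172341259 (plus), chr3:107101317-107101616 (plus), chr4:152477500-152477799 (minus) and chr11:33993144-33993443 (minus). Sequences are written 5′ to 3′ in the direction of the gene, and capitals mark matches on either strand to 4 motifs, which do not overlap each other here. The motifs are the half-site of the factor CREB, spelled TGACG, the binding box of the factor Sp1, spelled GGGCGG, the core promoter element of the general factor TBP, spelled TATAAA, and an E-box of neuronal helix-loop-helix factors, spelled CAGCTG.
Kcnj9: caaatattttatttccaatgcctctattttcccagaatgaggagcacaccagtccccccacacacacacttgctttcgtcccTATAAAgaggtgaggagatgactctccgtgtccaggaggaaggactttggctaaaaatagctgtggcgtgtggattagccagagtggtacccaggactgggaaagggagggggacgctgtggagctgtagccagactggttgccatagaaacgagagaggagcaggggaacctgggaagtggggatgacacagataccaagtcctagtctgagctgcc
Kcnj10: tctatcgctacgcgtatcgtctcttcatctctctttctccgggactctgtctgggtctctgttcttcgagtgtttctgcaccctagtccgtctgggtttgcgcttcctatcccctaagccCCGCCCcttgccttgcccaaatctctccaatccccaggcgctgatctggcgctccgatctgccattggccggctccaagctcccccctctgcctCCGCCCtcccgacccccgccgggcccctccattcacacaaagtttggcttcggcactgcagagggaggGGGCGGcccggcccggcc
Kcna2: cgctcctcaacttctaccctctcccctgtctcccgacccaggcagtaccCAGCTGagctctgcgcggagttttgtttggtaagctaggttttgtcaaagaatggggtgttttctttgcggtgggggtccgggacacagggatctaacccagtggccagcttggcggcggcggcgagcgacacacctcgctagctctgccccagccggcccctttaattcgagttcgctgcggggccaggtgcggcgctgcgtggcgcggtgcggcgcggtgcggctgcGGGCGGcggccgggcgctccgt
Kcnab2: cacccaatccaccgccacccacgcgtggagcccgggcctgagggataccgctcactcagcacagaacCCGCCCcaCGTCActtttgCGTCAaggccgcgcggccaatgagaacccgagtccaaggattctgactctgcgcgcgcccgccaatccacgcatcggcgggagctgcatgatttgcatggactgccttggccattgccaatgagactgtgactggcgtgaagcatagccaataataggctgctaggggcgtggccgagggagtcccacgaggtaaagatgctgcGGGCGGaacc
Kcnip1: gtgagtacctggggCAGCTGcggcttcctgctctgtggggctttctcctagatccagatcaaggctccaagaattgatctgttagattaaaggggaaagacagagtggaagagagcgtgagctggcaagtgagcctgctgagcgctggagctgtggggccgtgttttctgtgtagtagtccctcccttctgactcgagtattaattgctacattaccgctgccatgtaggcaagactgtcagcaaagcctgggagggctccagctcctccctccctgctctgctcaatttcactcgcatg
Of the 92 members, 67 were matched to a promoter. GGGCGG was present in 49.3% of these, against 35.7% of all 32851 promoters of the same length, and CAGCTG in 23.9%, against 16.3%. TGACG was present in 25.4%, against 20.8%, and TATAAA in 4.5%, against 13.6%. The members' windows had a median GC content of 59.7% and 10 CpG, against 52.7% and 7 CpG. Of the 18 genes higher in both groups 14 were matched, and of these 35.7% held CAGCTG, 42.9% GGGCGG, 14.3% TGACG and 7.1% TATAAA. A match describes the letters of the window and shows no binding.

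Known partners outside the Kcn symbols were read from a list of 23 genes, of which 22 were tested. Called higher at week 8 in both groups were 3 of the 22, against 6.9% of all genes. Among them were Amigo1, an adhesion protein that joins neuronal Kv channels (log2 fold change 1.71 in IUGR and 1.74 in NS), and Lgi1, a secreted ligand that regulates Kv1 channels (2.47 and 2.13). Called lower in both were 2, against 5.51% of all genes: Lrrc55, a BK gamma subunit (-1.29 and -1.57), and the pacemaker channel Hcn4 (-3.79 and -3.78). Adam23, a receptor of Lgi1, passed in NS with 0.78. Abcc8, the sulfonylurea receptor that joins Kcnj11, had adjusted p of 0.0808 in IUGR and 0.0882 in NS.

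Within week 8 the potassium channel genes split by replicate number in the same way in both groups. Over the 76 members with a mean of at least 1 CPM at week 8, the replicate 2 minus replicate 1 difference in log2(CPM + 1) correlated between IUGR and NS with Pearson r = 0.775, beside 0.863 over 14419 genes, and at day 3 with r = -0.626 and -0.092. These are descriptions across genes, which share libraries and are not independent. At day 3 Kcne2 (-2.15 in IUGR and 4.83 in NS) and Kcnj13 (-1.39 and 2.09) had the widest differences among the members, and r was not computed without them. At week 8, 11 members (14.47%, against 8.12% of all genes) were higher by over 1 in replicate 2 of both groups. Among them were Kcnc1, Kcnc4, Kcng1, Kcng2, Kcnj10, Kcnj11, Kcnk12, Kcnab2 and Kcnip2. Lower by over 1 were 8 (10.53%, against 7.02%): Kcnb2, Kcnh5, Kcnh7, Kcnj6, Kcnj13, Kcnk5, Kcnk10 and Kcnt2. None passed in either direction at day 3. Kcnh7, an ERG-type channel, had 72.2 and 7.68 CPM in IUGR, against 58.9 and 10.1 CPM in NS, replicate 1 first in each pair, and Kcnip2 had 52.3 and 232 CPM in IUGR, against 52.4 and 235 CPM in NS. Replicate 1 of both groups was high for Kcnh7 and low for Kcnip2.

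Measured properties moved with this split. The 11 higher members had a median transcript GC content of 57.6% (49.6 to 69.4%), the 8 lower ones 46.7% (36.6 to 55.2%) and the other 57 members 51.8%. Across the 76 members the mean difference had a Spearman rho of 0.6 with GC content, beside 0.45 over the 13907 genes with a value, and of -0.15 with the length of the gene body. Neuron markers summed to 12520 CPM in IUGR and 12760 CPM in NS replicate 2, against 5334 and 4887 CPM in replicate 1. Camk2a alone had 4854 CPM in IUGR and 5325 CPM in NS replicate 2, against 761.5 and 681.7 CPM in replicate 1. The other markers were also higher in replicate 2 of both groups, Map2 and Syt1 by far less. The part of cell composition or GC content in the split was not tested. For some members the direction between the ages depended on which week 8 replicate was kept, with opposite signs each over 0.5 on the log2 scale. These were Kcnh5, Kcnh7, Kcnk5, Kcne4, Kcnj2 and Kcnq3 in IUGR and Kcnh5, Kcnh7, Kcnk5, Kcnj13 and Kcns1 in NS. None of them was called.

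**Figure D3:**
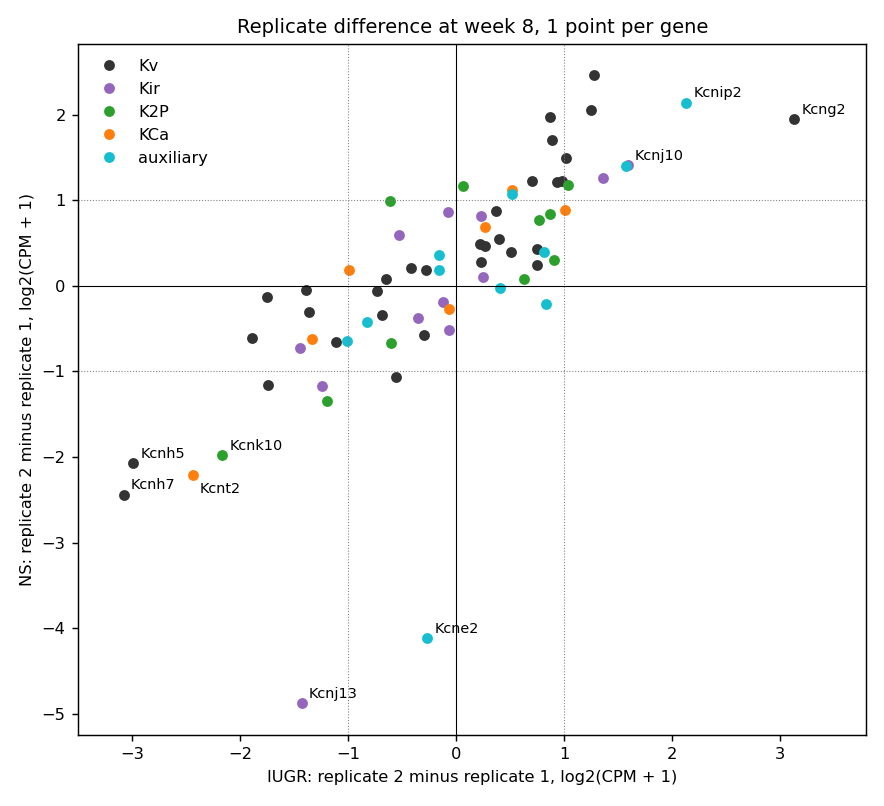
Difference between replicate 2 and replicate 1 at week 8 in log2(CPM + 1), IUGR on the horizontal and NS on the vertical axis, 1 point per reported member with a mean of at least 1 CPM; dotted lines mark 1 and -1. Most points lie along the diagonal (r = 0.775 over all 76 members), with Kcnip2 at 2.13 in IUGR and 2.14 in NS and Kcnh7 at -3.08 and -2.44, while Kcne2 and Kcnj13 are far from 0 mainly in NS.

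Between IUGR and NS no potassium channel gene was called at week 8 or at day 3, and none in the difference between the effects at these ages. The share of all 15999 genes called was 0% in each of these comparisons in edgeR, and DESeq2 and limma voom on all 8 libraries also gave 0 members. DESeq2 on the 4 libraries of an age alone called 1 gene at week 8 and 60 genes at day 3, with 0 members among them. At an unadjusted p under 0.05 edgeR had 1 member at week 8 (1.01% of all genes) and 0 at day 3 (0.6%) and in the difference (0.513%). DESeq2 on all 8 libraries had 2, 1 and 0 of 90 members, beside 208, 137 and 94 of 20574 genes. With 2 libraries a group, these counts do not show that levels were alike. The median log2 fold change of IUGR over NS was 0.06 at week 8 and -0.01 at day 3, beside 0.02 and 0.01 over all genes.

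Kcnip4 was the member with an unadjusted p under 0.05 at week 8. It had 38.5 and 69.2 CPM in IUGR, against 36.5 and 31.4 CPM in NS at that age and 15.4 and 14.2 CPM in IUGR, against 10.3 and 11.1 CPM in NS at day 3. Both IUGR libraries lay above both NS libraries at each age. The log2 fold change was 0.74 ± 0.303 at week 8 (adjusted p = 1) and 0.47 ± 0.307 at day 3 (adjusted p = 1). At week 8 it was 0.16 without both replicate 2 libraries and 1.19 without both replicate 1 libraries, and with 1 library left out it ranged from 0.26 to 1.1. At day 3 it was 0.59 without the libraries that go against the male label. IUGR was above NS in each of these settings, with a size that depended on the libraries kept. That direction was nearly fixed in advance, because the groups did not overlap in CPM at either age, so it is no support for a difference.

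At week 8 the IUGR libraries lay above the NS libraries for 3 members (3.75%, against 4.08% of all genes), Kcna5, Kcnip4 and Kcnj8, and below for 3 (3.75%, against 9.01%), Kcne2, Kcnq1 and Kcnu1. At day 3 they lay above for 8 (10%, against 19.7%) and below for 15 (18.8%, against 16.6%). The share below at day 3 was near that of all genes and the other shares were at or under it. Among the 8 were Kcnb2, Kcng4, Kcnip4, Kcnj14, Kcnk10, Kcnn1 and Kcnn2. Among the 15 were Kcnh3, an Elk-type channel of forebrain neurons, the GIRK subunit Kcnj9, the leak channels Kcnk9, Kcnk12 and Kcnk13, and Kcnmb4.

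Kcnh3 had 14.6 and 14.8 CPM in IUGR, against 25 and 23.5 CPM in NS at day 3, with a log2 fold change of -0.73 ± 0.623 (adjusted p = 1). Kcnmb4 had 7.94 and 7 CPM in IUGR, against 9.97 and 9.82 CPM in NS at that age, with -0.41 ± 0.247 (adjusted p = 1). For both genes the IUGR libraries were the lower ones, close to each other, and at week 8 their groups overlapped. Kcnu1 was below NS without overlap at both ages, with 2.43 and 2.26 CPM in IUGR, against 3.68 and 2.9 CPM in NS at week 8 and 8.84 and 6.5 CPM in IUGR, against 9.42 and 9.88 CPM in NS at day 3. Its log2 fold changes were -0.4 ± 0.317 and -0.33 ± 0.302, with adjusted p of 1. The genes with the smallest p in each class also included Kcnk1 at week 8, with 0.38 ± 0.247, and Kcnn1 and Kcnk12 at day 3, with 0.35 ± 0.308 and -0.58 ± 0.6. None passed. Without the day 3 libraries that go against the male label, the day 3 log2 fold changes were -0.77 for Kcnh3, -0.32 for Kcnmb4, -0.08 for Kcnu1, 0.57 for Kcnn1 and -0.91 for Kcnk12. With 1 library left out the values ranged from 0.02 (without IUGR replicate 2 of week 8) to 0.65 for Kcnk1, from -0.56 to -0.25 for Kcnu1 at week 8 and from -0.6 to -0.12 at day 3, from 0.21 to 0.47 for Kcnn1 and from -0.92 to -0.16 for Kcnk12.

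**Figure D4:**
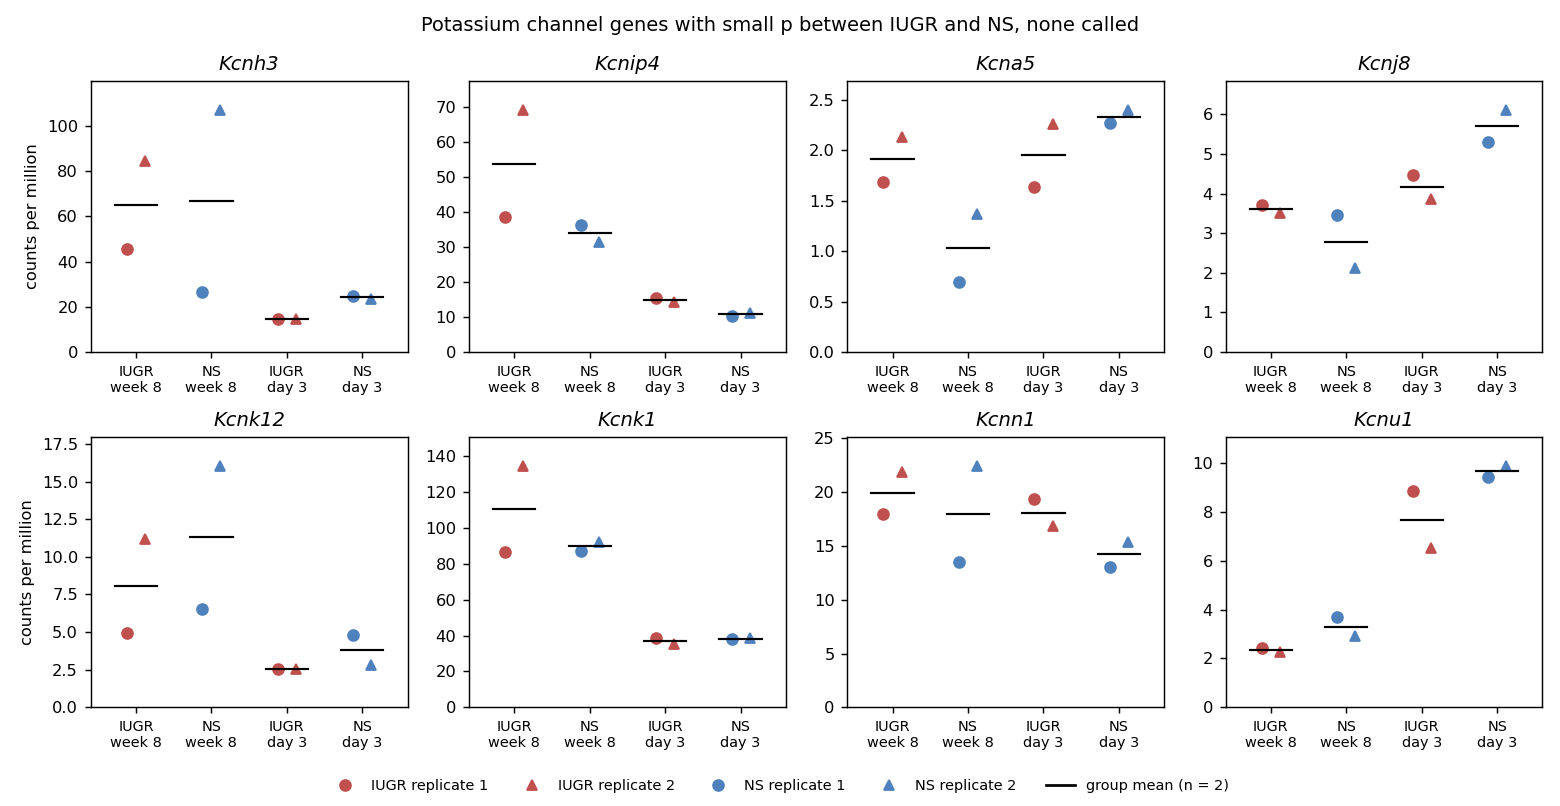
CPM of 8 members from those with the smallest p of their class between IUGR and NS, on linear axes from 0, 1 point per library with a bar at each group's mean of 2 libraries. The unadjusted p in edgeR was 0.0455 for Kcnip4 at week 8, and otherwise at least 0.101 for these genes at both ages. Kcnip4 is above NS at both ages and Kcnu1 below, Kcnh3 is below at day 3, Kcna5 and Kcnj8 are above NS at week 8 and below at day 3, and none passed an adjusted p of 0.05.

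Among the members with the smallest p of their class, Kcne2, Kcnj13 and Kcnj8 are known from the choroid plexus or from blood vessels. They are given beside markers of those tissues. Kcne2, an auxiliary subunit of choroid plexus epithelium, had 0.54 and 0.27 CPM in IUGR, against 28.3 and 0.68 CPM in NS at week 8 and 18.5 and 3.42 CPM in IUGR, against 0.55 and 43.1 CPM in NS at day 3. Kcnj13 (Kir7.1), a channel of the same epithelium, had 5.41 and 1.37 CPM in IUGR, against 43.9 and 0.53 CPM in NS at week 8. At day 3 it had 9.13 and 2.87 CPM in IUGR, against 3.51 and 18.1 CPM in NS. All 10 choroid plexus markers were detected, none of them a potassium channel gene. They summed to 76.2 and 70.7 CPM in IUGR, against 6769 and 88.1 CPM in NS at week 8 and 3245 and 463 CPM in IUGR, against 97.6 and 6313 CPM in NS at day 3. NS replicate 1 of week 8 and NS replicate 2 of day 3 were the 2 highest libraries for the marker sum and for both genes. The marker Ttr made up most of the sum in these libraries, with 6464 and 6047 CPM. The log2 fold change at week 8 was -5.03 ± 2.44 for Kcne2 (adjusted p = 1) and -2.62 ± 1.74 for Kcnj13, and without NS replicate 1 these were -0.68 and 2.73. The part of choroid plexus RNA in these values was not tested.

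**Figure D5:**
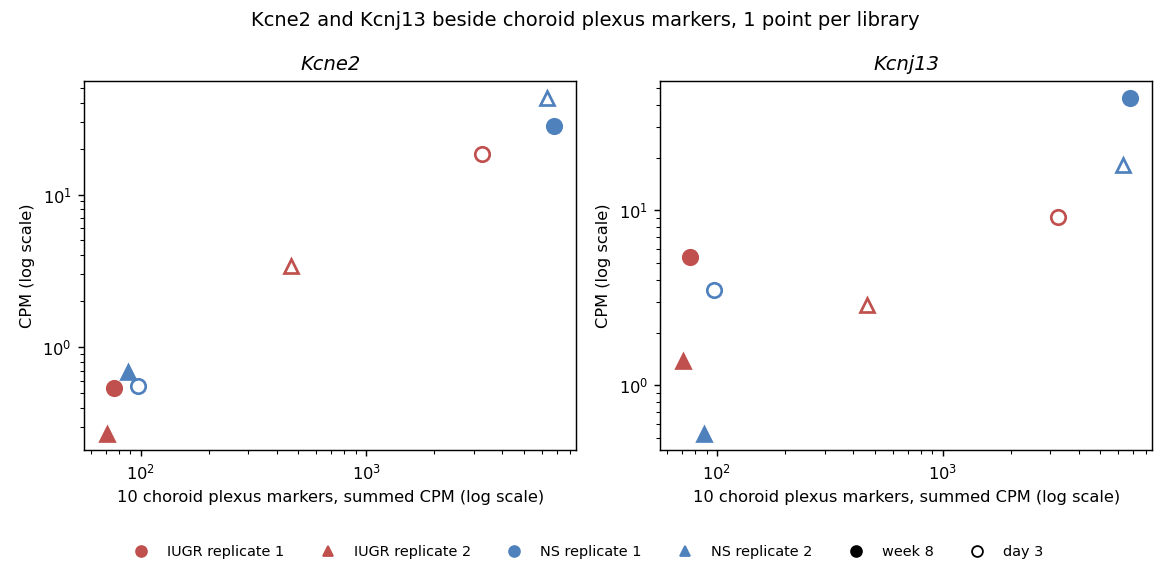
Level of Kcne2 and Kcnj13 (CPM) against the summed CPM of 10 choroid plexus markers, both axes logarithmic, 1 point per library (red IUGR, blue NS, filled week 8, open day 3). The 3 libraries with the highest marker sums have the 3 highest values of both genes.

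Kcnj8 (Kir6.1), the pore of ATP-sensitive channels in pericytes and vascular smooth muscle, had 3.72 and 3.5 CPM in IUGR, against 3.45 and 2.11 CPM in NS at week 8 and 4.48 and 3.86 CPM in IUGR, against 5.3 and 6.11 CPM in NS at day 3. IUGR was above NS at week 8 and below at day 3 without overlap, with log2 fold changes of 0.46 ± 0.361 and -0.45 ± 0.353 and adjusted p of 1. Without the day 3 libraries that go against the male label the day 3 value was -0.23. With 1 library left out the week 8 value ranged from 0.16 (without NS replicate 2) to 0.83 (without NS replicate 1). The 10 markers of endothelium and mural cells summed to 169 and 117 CPM in IUGR, against 320.0 and 215 CPM in NS at week 8 and 156 and 148 CPM in IUGR, against 228 and 211 CPM in NS at day 3. Both were lower in IUGR than in NS at day 3, while at week 8 Kcnj8 was above NS and the marker sum was below it for replicate 1 and replicate 2 alike. The part of vessels in the Kcnj8 values was not tested.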

How the data were processed

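RNA-seq was measured in 8 hippocampal libraries, after Ribo-Zero depletion of ribosomal RNA and random priming, per the labels. The authors deposited a table of raw read counts by symbol for week 8 and another for day 3. Reads had been processed with featureCounts 1.6.1, SAMtools 1.9, HISAT2 2.1.0, cutadapt 1.16 and DESeq2 1.26.0 on mm10, per the submitters' processing notes. Strand use, annotation release and the treatment of multiply mapped reads are not given in the sources. Groups came from the treatment and age labels and replicate numbers from the titles.

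All counts entered 1 edgeR fit (version 4.0.16, R 4.3.3) with a mean for each of the 4 groups (TMM factors 0.95 to 1.031, default expression filter, 15999 genes, quasi-likelihood F test, Benjamini-Hochberg adjustment over all genes, adjusted p under 0.05). SE is the absolute log2 fold change over the square root of F. Printed CPM are counts over the library total. The fit was tested on simulated counts. The members, lists, tests and naming rule were chosen with earlier results of these data known. Named members were those called in an IUGR comparison, the 2 of each class with the smallest p there, up to 6 called in both groups between the ages in each class and direction, the 3 of each class with the highest level per kilobase, and a fixed set of well-known channels; others are named because a count holds them, after their values were seen, and Kcnh5, Kcng2 and similar genes of the replicate split belong to these. Some members and partners that the rule or a count includes are not reported here. Gene positions are from GENCODE M21 (GRCm38, mm10), in which all 92 symbols were found; 28 members share exon positions with another gene. Alternatives were RLE and upper-quartile scaling, other count filters, DESeq2 1.42.0, limma voom 3.58.1, a replicate block, each age alone and libraries left out. The authors' normalized tables were not used.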

Additional observations from a re-analysis of the deposited data

Results flagged for a closer look

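At both ages the IUGR and NS libraries of Kcna5 (Kv1.5) did not overlap, in opposite directions. It had 1.69 and 2.13 CPM in IUGR, against 0.69 and 1.37 CPM in NS at week 8 and 1.64 and 2.26 CPM in IUGR, against 2.27 and 2.4 CPM in NS at day 3. The log2 fold change of IUGR over NS was 0.94 ± 0.493 at week 8 and -0.26 ± 0.475 at day 3, a difference of 1.2 ± 0.684 (SE, edgeR, adjusted p = 1), which did not pass. With 1 library left out the week 8 value ranged from 0.53 (without NS replicate 1) to 1.55 (without NS replicate 2). The Kcna5 values rest on few reads, with 25 and 31 counts in IUGR and 9 and 26 in NS at week 8. Kcnj8 (Kir6.1) showed the same order, with values given beside the vessel markers, and its difference between the ages was 0.91 ± 0.504 (adjusted p = 1). Of all genes, 4.08% had IUGR above NS without overlap at week 8 and 16.6% had it below at day 3. The share of all genes with both was not computed.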

How the results depend on the processing

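With n = 2 libraries a group and a common biological coefficient of variation of 0.374, small differences could not be detected, and members under about 1 CPM rest on few counts. Against 22 members called between the ages in IUGR and 20 in NS, DESeq2 on all libraries called 36 and 34 (25.8% and 24.3% of all genes), and without both replicate 2 libraries of day 3 0 members and 0% of all genes were called in each. Calls were 51 in IUGR and 58 in NS without both replicate 1 libraries of week 8, and 51 and 41 without both replicate 2 libraries (56%, 57.8%, 41.4% and 37.9% of all genes). Leaving out 1 library gave 1 to 33 in IUGR and 0 to 35 in NS, the lone library left being given the spread of the other groups. Upper-quartile scaling moved the median of all genes in IUGR between the ages from 0.02 to -0.09 on the log2 scale. Without their most abundant member, the week 8 to day 3 ratio was 1.11 for K2P and 2.48 for auxiliary subunits. No member was called between IUGR and NS, nor in the difference, under any of the alternatives run.

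The replicate numbers were not treated as pairs, because the labels do not say that they mark shared animals, litters or batches. Replicate differences of IUGR and NS correlated with r = 0.854 at week 8 and -0.075 at day 3 over 15999 genes. With the replicate block 33 members were called in IUGR and 27 in NS (21.9% and 18.8% of all genes), and with a block within each age, chosen after seeing the data, 44 and 42 (34.7% and 31.6%).

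Among single genes, the IUGR over NS log2 fold change changed sign when 1 library was left out for Kcnj16 at day 3 (-0.02 to 0.71) and, at week 8, for Kcnh8 (-1.84 to 0.18), Kcnj13 (-3.93 to 2.73), Kcnk9 (-0.99 to 0.1) and Kcnt1 (-0.93 to 0.25). Without both replicate 2 libraries of day 3, the day 3 value was -0.14 for Kcnj16, 5.06 for Kcne2 (-0.98 with all libraries) and 1.38 for Kcnj13 (-0.85 with all libraries). At week 8 it was 1.42 for Kcnj13 without both replicate 1 libraries of week 8 and 0.4 for Kcnk9 without both replicate 2 libraries. None of these was called, and the cause was not tested.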

Other observations

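Of the 92 members, 18 lie within 200000 bases of another in the GRCm38/mm10 annotation, in 8 clusters. In the chromosome 3 cluster Kcna2 (chr3:107101146-107115005) was higher at week 8 in both IUGR and NS, while its neighbour Kcna3 (Kv1.3, chr3:107036169-107038070) had log2 fold changes of -0.90 and -0.73 in IUGR and NS and did not pass. Kcna10, in the same cluster, was not tested. In the chromosome 6 cluster Kcna1 (chr6:126640397-126646384) was higher, while Kcna5 had 0.07 and -1.12 and Kcna6 (Kv1.6) 0.34 and 0.47. Kcnj16 passed and its neighbour Kcnj2 (Kir2.1) had 0.38 and 0.62. Kcnj9 and Kcnj10 formed the one cluster in which more than 1 member was called. Differences between neighbours were not tested.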
